A study of Mus musculus with 10 samples.

Results

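The genes described here are 10 genes of glucose uptake, glycolysis and lactate export in T cells that infiltrated mouse colorectal carcinoma. They were chosen by name (Hk2, Slc2a1, Slc2a3, Aldoa, Tpi1, Pgk1, Eno1, Pkm, Ldha and Slc16a3) from the 31053 features counted in each library, and all 10 were found. Aldoa has 2 rows in the files, so that 11 rows carry the 10 symbols, and the second Aldoa row held 6 molecules in all kept cells, against 42168 in the first, which is the row used here. The tumours came from 3 groups: 2 libraries of mice given S. Chamaejasme (Stellera chamaejasme, a herb of traditional Chinese medicine) together with anti-PD-1, called the combination here, 1 library of mice given S. Chamaejasme alone, and 2 libraries of untreated mice. Each library pairs 5′ single-cell RNA counts with sequences of the T cell receptor (TCR). No group received anti-PD-1 alone, the labels do not state the strain, age, tumour line, dose or day of collection, and nothing says whether the libraries of a group come from separate animals, so that p-values measure the spread between these libraries, which may be technical.

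Glycolysis turns glucose into pyruvate in the cytosol, and activated T cells are known for running it fast even when oxygen is present, with much of the pyruvate reduced to lactate and exported. Glucose enters through the facilitative transporters GLUT1 (Slc2a1) and GLUT3 (Slc2a3) and is trapped by hexokinase 2 (Hk2). Aldolase A (Aldoa), triosephosphate isomerase (Tpi1), phosphoglycerate kinase 1 (Pgk1), enolase 1 (Eno1) and pyruvate kinase M (Pkm) carry the carbon to pyruvate, lactate dehydrogenase A (Ldha) reduces it to lactate, and the transporter MCT4 (Slc16a3) carries lactate out of the cell. Many of these genes are known targets of the hypoxia-inducible factor HIF-1 and of MYC.

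In the annotation of build GRCm38 all 10 are protein-coding genes. Hk2 lies on chromosome 6 from 82725025 to 82774454 on the minus strand, and Slc16a3 on chromosome 11 from 120948480 to 120960868 on the plus strand. Slc2a3 and Tpi1 lie on chromosome 6, Slc2a1 and Eno1 on chromosome 4, Aldoa and Ldha on chromosome 7, Pkm on chromosome 9 and Pgk1 on chromosome X. RefSeq promoter windows (GRCm38.p6) were found for 9 of the 10, all but Slc2a3. The stretches before the start sites of Hk2 and Slc16a3 are shown because these genes gave the largest differences below, and that of Ldha because it holds the most matches to the core of the HIF-1 element, searched as ACGTG and GCGTG on both strands. Capitals mark these letters, CACGTG holds ACGTG on both strands, and the Slc16a3 stretch stops where the first annotated exon in the window begins. The Slc16a3 and Ldha stretches precede RefSeq starts that lie inside the annotated genes, with Ldha annotated from 46841475 to 46855627 on the plus strand.
Hk2, chr6:82774455-82774704, minus strand: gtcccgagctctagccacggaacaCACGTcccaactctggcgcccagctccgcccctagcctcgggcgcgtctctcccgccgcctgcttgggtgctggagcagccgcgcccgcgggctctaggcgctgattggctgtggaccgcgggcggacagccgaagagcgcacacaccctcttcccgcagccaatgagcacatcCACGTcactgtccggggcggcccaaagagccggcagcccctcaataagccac
Slc16a3, chr11:120948817-120949052, plus strand: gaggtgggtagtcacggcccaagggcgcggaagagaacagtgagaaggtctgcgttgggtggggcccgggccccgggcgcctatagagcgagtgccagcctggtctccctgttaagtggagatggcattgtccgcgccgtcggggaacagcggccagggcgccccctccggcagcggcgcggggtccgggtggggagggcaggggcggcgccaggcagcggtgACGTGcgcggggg
Ldha, chr7:46845554-46845803, plus strand: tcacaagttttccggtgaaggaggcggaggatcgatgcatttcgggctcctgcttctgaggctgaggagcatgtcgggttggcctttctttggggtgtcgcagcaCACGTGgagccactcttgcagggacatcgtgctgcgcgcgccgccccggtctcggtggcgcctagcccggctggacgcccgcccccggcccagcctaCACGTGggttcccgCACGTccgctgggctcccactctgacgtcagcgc
Over the 250 bases before each start, 12 of 15 windows of these genes, from 8 of 9 genes, held ACGTG or GCGTG, as did 38.6% of all 32851 promoter windows. For ACGTG alone the figures were 8 of 15 windows and 16.6% of all windows. Tpi1 held neither. A match is a description of these letters, and the windows of a gene overlap in part.

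The 5 RNA libraries held 22590 barcodes and 97967927 molecules (unique molecular identifiers, UMIs), and 20239 cells were kept. Lineages were set by gates on transcripts that include none of the 10 genes: 1266 regulatory T (Treg) cells with Foxp3, 3666 CD8 cells with Cd8a or Cd8b1 and neither Cd4 nor Foxp3, and 5769 conventional CD4 (CD4conv) cells with Cd4 and neither Cd8 nor Foxp3. The other 9538 kept cells passed no gate and were not used in the tests. Cells do not count as replicates, so UMIs were summed per gate and library, and levels are given as CPM, the UMIs of a gene scaled to the same standard total in each sum. The 15 sums held between 304805 and 9193094 UMIs, with the smallest in Treg cells of an untreated library (79 cells). Helios (Ikzf2), a Treg marker that no gate used, had 689 to 916 CPM in the Treg gate over the 5 libraries, 26.9 to 68.5 CPM in the CD8 gate and 35.9 to 98.1 CPM in the CD4conv gate. Of the CD4conv gate, 5.77% of cells fell in clusters of the Treg class. Untreated libraries stood apart in 3 transcripts that reflect RNA quality: Gm42418 had 6407 to 8750 CPM in the Treg and CD4conv sums of the combination, against 12257 to 21585 CPM in those of untreated libraries, and with Lars2 and AY036118 it was lower in the combination and with S. Chamaejasme than in untreated tumours in all 3 gates. Libraries shared between 14 and 54 cell barcodes with each other.

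Treg cells had the highest summed level of the 10 genes, at 2812 ± 230 CPM, against 1873 ± 183 CPM in CD8 cells and 2241 ± 119 CPM in CD4conv cells (SD, n = 5 libraries each). Relative to CD4conv cells of the same libraries, Slc16a3, Tpi1, Slc2a3, Slc2a1, Aldoa and Pkm were higher in Treg cells and Hk2 was lower, so that 7 of 10 genes passed the test where 33.2% of the 8456 genes tested did. Relative to CD8 cells, Slc16a3, Tpi1, Pkm, Aldoa and Ldha were higher in Treg cells and Hk2 was lower, 6 of 10 against 37.8% of 8446 genes. CD8 cells had lower Slc16a3, Pkm, Tpi1, Ldha and Aldoa than CD4conv cells and higher Slc2a3, 6 of 10 against 28.1% of 9486 genes. A gene passed at an adjusted p under 0.05 in edgeR's quasi-likelihood test on the summed UMIs, with the library as a block and Benjamini-Hochberg adjustment over all genes tested.

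The lactate exporter gene Slc16a3 separated the lineages most. In Treg cells it had 51.1 and 42.8 CPM in the combination libraries, 24.6 CPM with S. Chamaejasme and 16.4 and 14.0 CPM in untreated libraries. In CD8 cells the values were 2.2 and 2.8, 2.1, and 1.9 and 0.7 CPM in the same order of libraries. In CD4conv cells they were 7.4 and 7.5, 8.4, and 3.3 and 2.4 CPM. Every Treg sum was above every CD4conv and CD8 sum, and in each library CD8 cells were below CD4conv cells. Treg cells exceeded CD8 cells by 3.77 ± 0.23 (log2 fold change ± SE, 13.7-fold, adjusted p = 9.1e-09) and CD4conv cells by 2.26 ± 0.19 (4.8-fold, adjusted p = 3.62e-08), and CD8 cells were lower than CD4conv cells (-1.56 ± 0.23, adjusted p = 6.79e-05). The counts behind this are small: 213 UMIs in Treg cells, 37 in CD8 cells and 184 in CD4conv cells. The CD4conv gate also held cells of Treg clusters. With classes of clusters in place of the gates, Treg cells exceeded CD4conv cells by 3.16 ± 0.20 and CD8 cells by 3.95 ± 0.23.

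The enzymes between aldolase and lactate dehydrogenase followed a similar order. Tpi1, which interconverts the triose phosphates, averaged 140 ± 21.6 CPM in Treg cells, 58.4 ± 13.4 CPM in CD8 cells and 79.7 ± 13.6 CPM in CD4conv cells (SD, n = 5 libraries each). The Treg sums did not overlap those of the other gates, and Tpi1 was 1.14 ± 0.13 higher in Treg than in CD8 cells (adjusted p = 5.45e-06). Aldoa averaged 714 ± 42.2 CPM in Treg cells, 429 ± 42.4 CPM in CD8 cells and 498 ± 17.8 CPM in CD4conv cells. Treg cells exceeded CD4conv cells in Aldoa by 0.37 ± 0.06 (adjusted p = 7.76e-05), again without overlap. Pkm, the last enzyme before pyruvate, averaged 558 ± 76.3 CPM in Treg cells, 296 ± 18.6 CPM in CD8 cells and 433 ± 25.5 CPM in CD4conv cells, and it was lower in CD8 than in CD4conv cells in all 5 libraries (-0.49 ± 0.04, adjusted p = 2.99e-07). Ldha averaged 588 ± 63.3 CPM in Treg cells, 378 ± 59.4 CPM in CD8 cells and 483 ± 59.2 CPM in CD4conv cells, with Treg above CD8 cells by 0.45 ± 0.09 (adjusted p = 0.000912) and CD8 below CD4conv cells by -0.31 ± 0.05 (adjusted p = 8.53e-05). Pgk1 and Eno1 passed in none of the 3 lineage comparisons.

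Of the genes of glucose entry, Slc2a3 (GLUT3) was higher in Treg than in CD4conv cells (0.89 ± 0.17, adjusted p = 0.00054) and higher in CD8 than in CD4conv cells (0.53 ± 0.10, adjusted p = 0.000702). Its means were 31.6 ± 8.17 CPM in Treg cells, 24.8 ± 4.89 CPM in CD8 cells and 17.97 ± 3.79 CPM in CD4conv cells (SD, n = 5), and both differences were in the same direction in 5 of 5 libraries by CPM. Hk2 ran the other way, with 12.1 ± 5.88 CPM in Treg cells, 22.8 ± 18.6 CPM in CD8 cells and 25.6 ± 20.4 CPM in CD4conv cells, and it was lower in Treg than in CD4conv cells by -0.87 ± 0.23 (adjusted p = 0.00736). By CPM this held in 4 of 5 libraries. Treg cells had 9.1 and 6.3 CPM in the combination against 8.4 and 9.4 CPM in CD4conv cells. The values were 8.6 against 24.3 CPM with S. Chamaejasme, and 16.4 and 20.2 against 58.8 and 27.1 CPM in untreated libraries. The large SD of Hk2 in CD8 and CD4conv cells comes with the difference between groups given below. The smaller lineage calls depended on single libraries and on how the lineages were set: Aldoa in CD8 against CD4conv cells (-0.17 ± 0.05, adjusted p = 0.0174) did not pass without either combination or either untreated library (adjusted p of 0.0546 to 0.0857), Slc2a1 in Treg against CD4conv cells (0.39 ± 0.13, adjusted p = 0.0261) not without untreated replicate 2, the S. Chamaejasme library or combination replicate 1 (0.0647 to 0.14), and Pkm in Treg against CD4conv cells (0.22 ± 0.06, adjusted p = 0.0143) not without either combination library (0.0706 and 0.104). Hk2 in Treg against CD8 cells (-0.77 ± 0.23, adjusted p = 0.0166) did not pass without untreated replicate 1 (-0.57 ± 0.23, adjusted p = 0.0628). With classes of clusters in place of the gates, Aldoa in CD8 against CD4conv cells was at -0.037 ± 0.043 (adjusted p = 0.566), Pkm in Treg against CD4conv cells at 0.11 ± 0.07 (adjusted p = 0.204) and Slc2a1 in Treg against CD4conv cells at 0.27 ± 0.10 (adjusted p = 0.051), and none of the 3 passed.

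These log2 changes are relative to a trimmed mean of all genes (TMM scaling). On library totals alone the median gene shifted by 0.13 in Treg against CD4conv cells and by 0.18 in Treg against CD8 cells, and 74.9% and 75.4% of called genes were higher in Treg cells, against 53.0% and 52.1% with TMM. In CD8 against CD4conv cells the share of higher calls was 34.4% on library totals and 48.4% with TMM. On library totals 8 of the 10 genes were higher in Treg than in CD8 cells and none lower, and Hk2 (-0.57 ± 0.24, adjusted p = 0.0707) no longer passed.

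**Figure D1:**
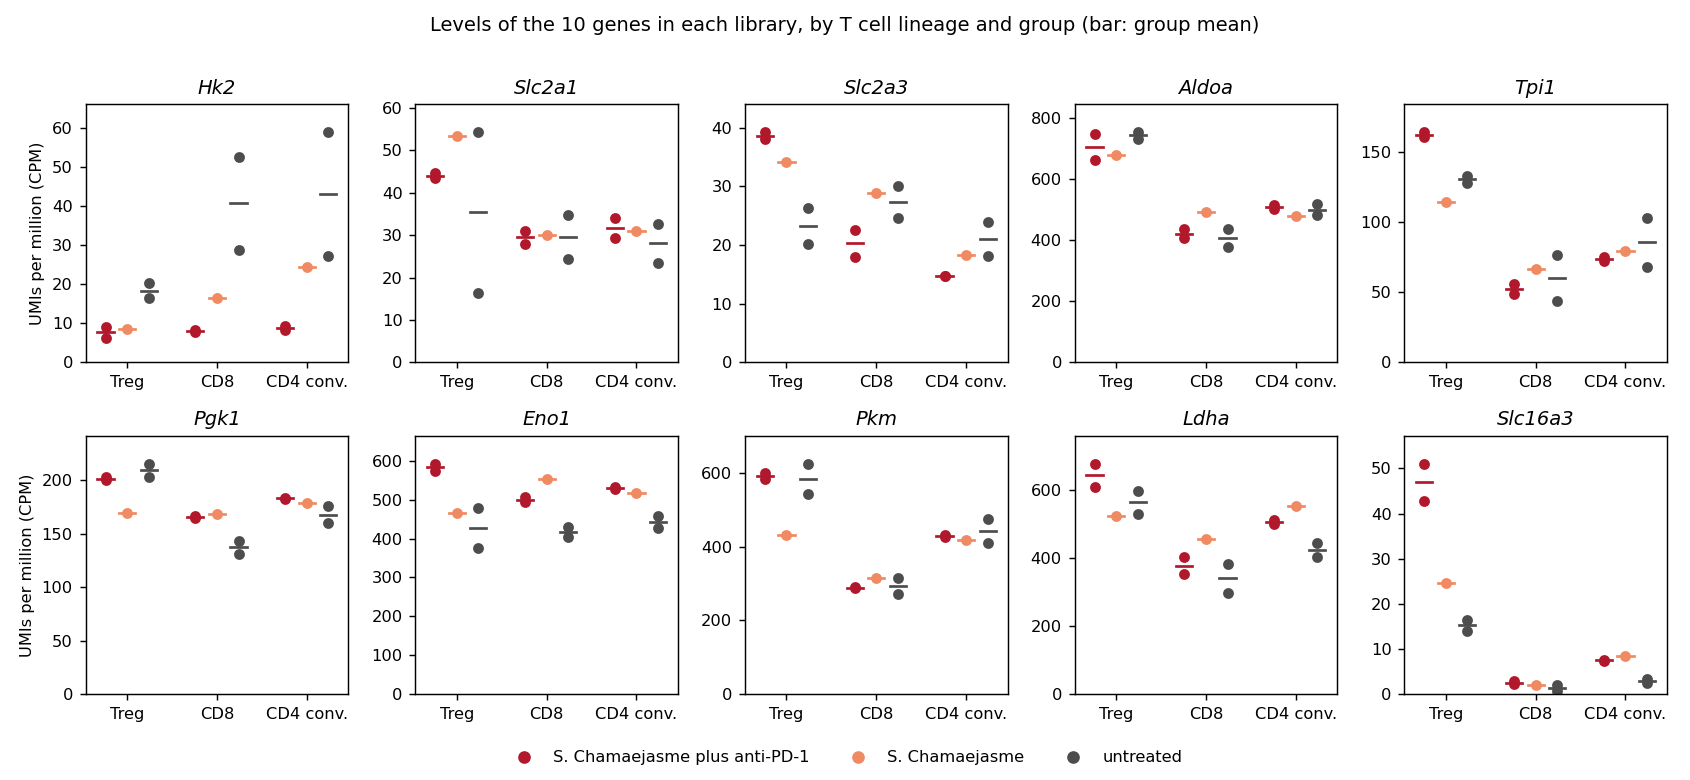
Level of each gene in CPM (linear axis from 0) in Treg, CD8 and CD4conv cells; a point is 1 library, a bar the group mean, and the colours are the combination, S. Chamaejasme and untreated groups. Slc16a3 is high in Treg cells, with 42.8 and 51.1 CPM in the combination, and Hk2 in CD8 and CD4conv cells is at 7.8 to 9.4 CPM in the combination libraries and at 27.1 to 58.8 CPM in the untreated ones.

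Other pathway genes, from lists made of textbook members, are set here against the share of all genes that passed, 33.2% in Treg against CD4conv cells and 28.1% in CD8 against CD4conv cells. Of 16 other glycolysis genes tested in Treg against CD4conv cells, 5 were higher (Bpgm, Eno2, Gapdh, Gpi1 and Eno3) and 2 lower (Pfkp and Pgam1), with a median of 0.05 over the list and -0.02 over all genes. The neuronal enolase gene Eno2 was higher by 2.21 ± 0.25 (adjusted p = 1.5e-06). Among 5 other transporters, Slc2a6, a hexose transporter of lysosomes, was higher by 2.50 ± 0.26 (adjusted p = 4.5e-07) with the MCT chaperone gene Bsg, and Slc16a1, which encodes the transporter MCT1, was lower (-0.66 ± 0.19, adjusted p = 0.01) with Emb. Of 16 regulators and hypoxia targets, 5 were higher (Arnt, Bnip3, Ero1l, Egln3 and Ndrg1) and 2 lower (Txnip and Myc). The HIF prolyl hydroxylase gene Egln3 was higher by 1.75 ± 0.15 (adjusted p = 5.2e-08) and Ndrg1 by 1.94 ± 0.14 (adjusted p = 7e-09). In CD8 against CD4conv cells, 8 of 17 other glycolysis genes were lower, among them Ldhb (-1.26 ± 0.11, adjusted p = 1.7e-07), and 1 higher (Tigar), and Hif1a was lower by -1.62 ± 0.06 (adjusted p = 1.3e-11) while Myc was higher by 0.75 ± 0.07 (adjusted p = 3.1e-07). Genes that bring pyruvate into the mitochondrion gave 1 higher and 1 lower of 8 in Treg against CD4conv cells, and 1 and 1 of 9 in CD8 against CD4conv cells, both below the share of all genes.

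The 3 RNA quality transcripts were lower in Treg than in CD4conv cells, by -0.49 to -0.58, and lower in Treg than in CD8 cells, by -0.62 to -0.66, and AY036118 was higher in CD8 than in CD4conv cells by 0.14 ± 0.05. Cycling genes were higher in Treg cells, with 2 of 4 tested (Mki67 and Pclaf) against CD4conv cells and 3 of 4 (Stmn1, Mki67 and Pclaf) against CD8 cells, and Stmn1 was lower in CD8 than in CD4conv cells. Of 11 T cell activation genes kept as context, 8 were higher and 2 lower in Treg than in CD4conv cells. Against CD8 cells 9 were higher and 2 lower, and in CD8 against CD4conv cells 1 was higher and 7 lower. The shares of all genes that passed were 33.2%, 37.8% and 28.1% in this order. The part of activation in the lineage differences was not tested. Without cells that held at least 2 UMIs of cycling genes, the same 7, 6 and 6 of the 10 genes passed in Treg against CD4conv, Treg against CD8 and CD8 against CD4conv cells. The same genes passed without the rows of RNA quality and mitochondrial genes, a fit that keeps every cell and does not adjust for RNA quality. Without cycling cells Slc16a3 was 2.30 ± 0.20 higher in Treg than in CD4conv cells and 3.76 ± 0.23 higher than in CD8 cells, and Tpi1 0.73 ± 0.10 and 1.13 ± 0.12 higher.

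Within lineages the level depended on the cluster. All kept cells were grouped into 15 clusters without using the 10 genes or the pathway lists, and levels below are means ± SD over libraries with at least 20 cells, given as a description. Hk2 was highest in cluster 13, led by Trdv4 and Cd163l1, markers of gamma delta T cells, at 228 ± 93 CPM, and next in cluster 4 at 118 ± 49.5 CPM (n = 5). Cluster 4 is Th17-like, led by Il17a and Il22, which encode cytokines of type 17 responses. The ranges of these clusters overlapped, at 101 to 344 CPM and 69.0 to 172 CPM. Cluster 8, CD8 cells led by Ccl5, Gzma and Gzmk, had 38.4 ± 22.8 CPM, and the CD8 cells of cluster 5, led by Ly6c2, had 7.3 ± 5.9 CPM. Clusters 0, 2, 3 and 7 of the CD4conv class, of which cluster 2 is led by genes that include Il6ra and cluster 7 holds the RNA quality transcripts AY036118 and Lars2 among its leading genes, had 2.0 to 4.9 CPM of Hk2 on average.

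Slc16a3 had another order. Cluster 6, Treg cells led by Penk, Klrg1 and Tnfrsf9, had 35.1 ± 19.5 CPM, and the Treg cells of cluster 10, led by Lrrc32 and Gpr83, had 15.1 ± 7.4 CPM (n = 5 each), with ranges of 15.3 to 63.3 and 3.4 to 21.1 CPM that overlapped. The Tfh-like cluster 1, led by Tox2 and Il21, followed at 9.1 ± 3.6 CPM. Cluster 14, led by Jchain, Cd74 and Lyz2, which mark B and myeloid cells, had 41.5 CPM in the only library with enough cells. Cluster 12, led by the proliferation genes Pclaf and Mki67, was first in Ldha (929 ± 216 CPM), Pkm (843 ± 80.2 CPM), Pgk1 (336 ± 34.1 CPM) and Tpi1 (181 ± 50.4 CPM) over 4 libraries. Cluster 6 and cluster 1 had more Aldoa (802 ± 23.6 and 730 ± 57.6 CPM) and Tpi1 (142 ± 23.8 and 142 ± 15.4 CPM) than the CD4conv cells of cluster 0 (280 ± 25.6 CPM of Aldoa and 23.5 ± 4.0 CPM of Tpi1), and the libraries did not overlap. Eno1 was highest in cluster 2, led by genes that include Il6ra, at 684 ± 72.3 CPM.

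**Figure D2:**
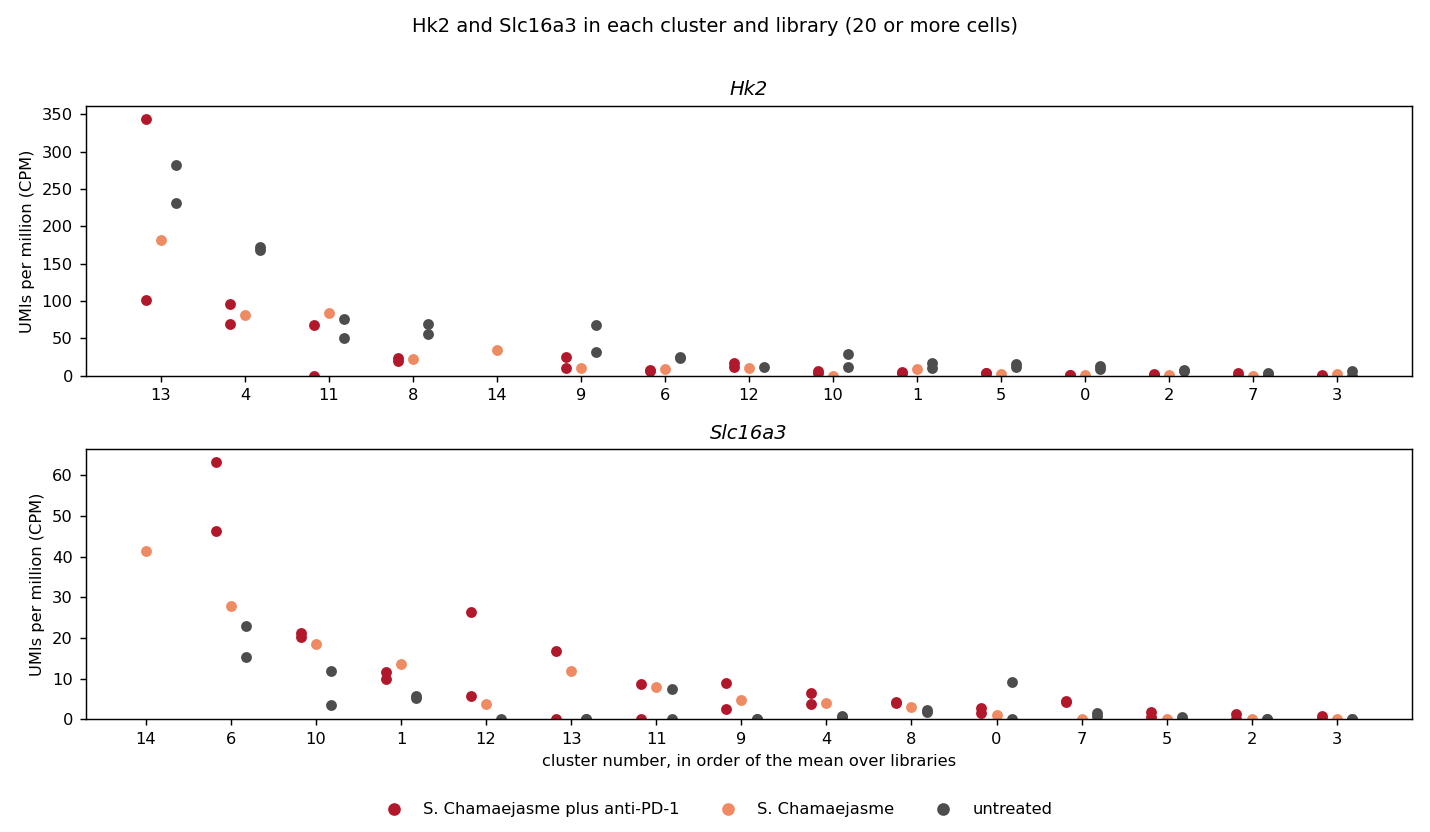
Hk2 and Slc16a3 in CPM (linear axes from 0) in each cluster, ordered by the mean over libraries; a point is 1 library with at least 20 cells, coloured by group. Hk2 peaks in clusters 13 and 4, and in clusters 4 and 8 both untreated libraries lie above the other 3, while Slc16a3 peaks in clusters 14 and 6.

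Between groups, Hk2 and Slc16a3 were the only genes of the 10 to pass. Hk2 was lower in the combination than in untreated tumours in CD8 cells, where it was the 1 gene of 10 called against 4.42% of 10036 genes tested, and in CD4conv cells, where Hk2 (lower) and Slc16a3 (higher) were called against 4.99% of 10347 genes. In Treg cells Slc16a3 was higher, 1 of 10 against 0.568% of 7927 genes. The median log2 change of the 10 genes was 0.02 in CD8, 0.03 in CD4conv and 0.09 in Treg cells, and that of all genes lay within 0.01 of 0.

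In CD8 cells Hk2 had 7.8 and 8.4 CPM in the combination libraries and 16.4 CPM with S. Chamaejasme, against 52.5 and 28.8 CPM in untreated libraries. In CD4conv cells the values were 8.4 and 9.4 CPM in the combination and 24.3 CPM with S. Chamaejasme, against 58.8 and 27.1 CPM untreated. In both gates the combination libraries were lowest and the S. Chamaejasme library lay between, an order over 2, 1 and 2 libraries. How many of all genes have such an order was not counted. The combination changed Hk2 by -2.28 ± 0.26 in CD8 cells (0.206-fold, adjusted p = 0.00204) and by -2.23 ± 0.30 in CD4conv cells (0.213-fold, adjusted p = 0.00696). The signal was spread over cells: in CD8 cells 29 and 29 cells of the combination libraries held an Hk2 molecule, against 78 and 63 in the untreated libraries, and no cell held more than 6. Cycling genes summed to 47.7 and 29.5 CPM in CD8 cells of the combination, against 67.5 and 57.9 CPM untreated, and without cycling cells the change of Hk2 was -2.30 ± 0.26 (adjusted p = 0.000395). In Treg cells Hk2 had 9.1 and 6.3 CPM in the combination and 8.6 CPM with S. Chamaejasme, against 16.4 and 20.2 CPM untreated, and the difference did not pass (-1.33 ± 0.52, adjusted p = 0.301, 29 against 18 UMIs). A difference of the change between lineages was tested as an interaction and did not pass, at -0.04 ± 0.25 for CD8 minus CD4conv cells (adjusted p = 0.994) and 0.79 ± 0.50 for Treg minus CD4conv cells (adjusted p = 0.816). None of the 10 genes passed either interaction (0.0949% and 0.396% of all genes did), with 0 and 2 genes at an unadjusted p under 0.05 in edgeR, and 0 called by DESeq2.

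The clusters in which Hk2 is high took different shares of the gates. Cluster 4 held 7.7% and 6.5% of CD4conv cells in the combination libraries and 23.1% with S. Chamaejasme, against 27.3% and 14.1% in untreated libraries. Its leading genes include Furin, itself lower in the combination, so the shares are not independent of the groups. Within cluster 4 alone Hk2 had 69.0 and 96.3 CPM in all cells of the combination libraries and 80.9 CPM with S. Chamaejasme, against 169 and 172 CPM untreated, and in its CD4conv cells the change was -0.92 ± 0.26 and did not pass (adjusted p = 0.0967). Cluster 8 held 19.8% and 24.5% of CD8 cells in the combination and 50.6% with S. Chamaejasme, against 50.7% and 28.9% untreated. Within cluster 8 alone Hk2 was lower by -1.70 ± 0.27 (adjusted p = 0.00106), and within cluster 5 alone by -1.82 ± 0.44 (adjusted p = 0.0404). The part of cluster shares in the CD4conv result was not tested beyond these fits. Gamma delta T cells, high in Hk2 in cluster 13, were gated out only where a Trdc molecule was counted, so some can remain. Cluster 13 held at most 0.725% of CD8 cells in any library. Cluster 9, whose leading genes include Fcer1g, Tcrg-V1 and Tcrg-C4, held 2.8% and 1.7% of CD8 cells in the combination. It held 10.8% with S. Chamaejasme and 1.6% and 2.1% in untreated libraries. The 3 measured gamma delta markers, with Trdc at 0 by the gate, summed to 0.887 and 10.3 CPM in CD8 cells of the combination. They summed to 9.38 CPM with S. Chamaejasme and to 11.2 and 8.32 CPM untreated. The part of these cells in the Hk2 result was not tested.

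Slc16a3 was 1.40 ± 0.30 higher in CD4conv cells of the combination (2.63-fold, adjusted p = 0.0356) and 1.60 ± 0.34 higher in Treg cells (3.03-fold, adjusted p = 0.0447), with the values by library given above. In both gates every combination library was above every untreated one, on 131 against 16 UMIs in CD4conv cells and 176 against 14 UMIs in Treg cells. Both calls were close to the threshold. Without untreated replicate 2, combination replicate 1 or combination replicate 2 neither passed (adjusted p of 0.105 to 0.125 in CD4conv cells and 0.128 to 0.944 in Treg cells), nor did the Treg one without the S. Chamaejasme library (0.0733), with no filter on low counts (0.37), without RNA quality and mitochondrial genes (0.0514) or without cycling cells (0.0844). The CD4conv one did not pass in classes of clusters in place of gates (0.92 ± 0.32, adjusted p = 0.118). Cluster 6, of the Treg class and high in Slc16a3, held 3.5% and 4.8% of CD4conv cells in the combination, against 2.6% and 4.8% untreated. The part of these cells was not tested. Over all alternatives the log2 change stayed between 0.80 and 1.57 in CD4conv cells and between 1.46 and 1.74 in Treg cells. Within Treg cells of cluster 6 the change was 1.74 ± 0.38 (adjusted p = 0.0401), and in CD4conv cells without cluster 7, which held 1.1% and 1.4% of them in the combination and 22.4% and 29.7% in untreated libraries, it was 1.04 ± 0.32 (adjusted p = 0.075). Myeloid cells also express Slc16a3. The 8 myeloid markers summed to 9.1 and 2.6 CPM in Treg cells of the combination, with 4 of 8 detected in each and Adgre1 and Fcgr3 at 0 in both, against 19.7 and 7.8 CPM untreated, and to 6.0 and 14.8 CPM in CD4conv cells of the combination (7 and 8 detected), against 4.3 and 3.7 CPM untreated (3 and 5 detected, with Adgre1 and C1qa at 0 in both). The 5 B and plasma cell markers summed to 329 and 12.7 CPM in Treg cells of the combination and 180 CPM with S. Chamaejasme, against 16.4 and 14.0 CPM untreated, with Ms4a1 at 0 in all 5 libraries. Slc16a3 in the combination and S. Chamaejasme libraries, in the same order, had 51.1, 42.8 and 24.6 CPM in Treg cells. In CD4conv cells the B and plasma cell markers summed to 2.9 and 20.9 CPM in the combination, against 1.4 and 3.2 CPM untreated. The part of these cell types in either result was not tested.

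The other 8 genes did not pass in any of the 3 gates. Eno1 had an unadjusted p under 0.05 in each, at 0.42 ± 0.16 in Treg cells (adjusted p = 0.285), 0.27 ± 0.12 in CD8 cells (adjusted p = 0.221) and 0.22 ± 0.09 in CD4conv cells (adjusted p = 0.164), with 593 and 574 CPM in Treg cells of the combination and 479 and 376 CPM in untreated ones. Reads of Eno1 may be split with its near-identical copy Eno1b, which had 889 molecules against 44077 of Eno1 in all kept cells. Slc2a3 pointed in different directions, with 39.3 and 38.1 CPM in Treg cells of the combination against 26.2 and 20.2 CPM untreated, and 14.7 and 14.7 CPM in CD4conv cells of the combination against 23.9 and 18.2 CPM untreated. The difference between these changes was 1.25 ± 0.35 and did not pass (adjusted p = 0.211 in edgeR's test).

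With S. Chamaejasme alone against untreated tumours, Hk2 was lower in CD8 cells (-1.42 ± 0.29, 0.374-fold, adjusted p = 0.0361), the 1 gene of 10 called where 2.53% of all genes were. This comparison has 1 library on its first side, which the fit assumes to vary like the other groups. The call did not hold without combination replicate 2 (adjusted p = 0.0541) or on library totals without TMM scaling (adjusted p = 0.0525), which shifted the median of all genes by 0.14 and left 76.7% of called genes higher, against 43.3% with TMM. In CD4conv and Treg cells 0 of 10 passed (1.31% and 0.378% of all genes did), with 3 and 1 at an unadjusted p under 0.05 in edgeR and 0 called by DESeq2. Slc16a3 in CD4conv cells came nearest, at 8.4 CPM with S. Chamaejasme against 3.3 and 2.4 CPM untreated (1.53 ± 0.36, adjusted p = 0.073). The S. Chamaejasme sum of CD4conv cells stood apart in markers of other cell types. The 8 myeloid markers summed to 54.3 CPM in it (7 detected, Adgre1 at 0), against 4.3 and 3.7 CPM untreated, the 5 B and plasma cell markers to 225 CPM (3 detected, Ms4a1 at 0), against 1.4 and 3.2 CPM, and the 5 NK markers to 29.3 CPM (3 detected), against 0.48 and 5.3 CPM. Their part in the Slc16a3 difference was not tested. In the S. Chamaejasme sum of CD8 cells the NK markers summed to 71.12 CPM, against 4.69 and 18.02 CPM untreated. B and plasma cell markers summed to 15.4 CPM there, against 8.4 and 10.7 CPM. Myeloid ones summed to 4.69 CPM, against 4.69 and 7.63 CPM. Cluster 9 held 10.8% of these CD8 cells, against 1.6% and 2.1% untreated. The change of Hk2 was -1.75 ± 0.30 in cluster 8 alone. The part of NK or cluster 9 cells in the Hk2 call was not tested. Between the combination and S. Chamaejasme alone 0 of 10 passed in CD8, CD4conv or Treg cells (1.31%, 0.86% and 0.278% of all genes did), with 1, 1 and 3 at an unadjusted p under 0.05 in edgeR and 0 called by DESeq2. Hk2 in CD4conv cells differed by -1.41 ± 0.37 there (adjusted p = 0.169). The comparisons with the combination and with S. Chamaejasme share the untreated libraries. On library totals the share of called genes that were higher was 42.2% in CD4conv and 48.2% in Treg cells for the combination against untreated tumours (28.7% and 33.3% with TMM), 63.8% in CD4conv cells for S. Chamaejasme against untreated (36.8%), and 22.9% in CD8 and 45.5% in Treg cells for the combination against S. Chamaejasme (38.2% and 31.8%), where the median gene of CD8 cells moved by -0.15.

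**Figure D3:**
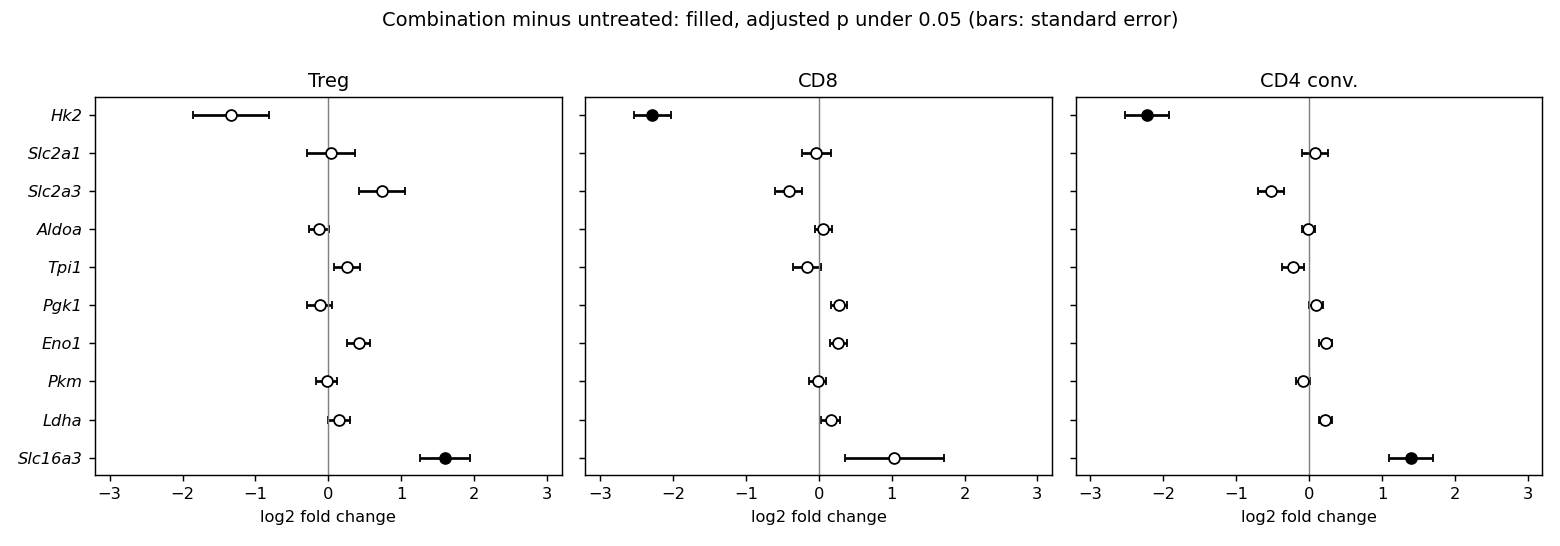
Log2 fold change of each gene in the combination relative to untreated tumours, in Treg, CD8 and CD4conv cells, with its standard error; filled points have an adjusted p under 0.05. Hk2 is at -2.28 in CD8 and -2.23 in CD4conv cells, Slc16a3 at 1.60 in Treg and 1.40 in CD4conv cells, and the other 8 genes are open points.

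Around these genes, few others of the pathway passed in the combination. Of the other glycolysis genes 1 of 17 in CD8 cells and 1 of 19 in CD4conv cells passed, and in both it was Gapdh, the enzyme step between Tpi1 and Pgk1, lower by -0.57 ± 0.13 (adjusted p = 0.04) and -0.57 ± 0.12 (adjusted p = 0.028), and 0 of 15 passed in Treg cells. Gapdh had 930 and 797 CPM in CD8 cells of the combination against 1415 and 1159 CPM in untreated ones. Of 5 other transporters 1 passed in CD8 and in CD4conv cells and 0 in Treg cells, namely Emb, which encodes a chaperone of MCT transporters and was lower by -0.49 ± 0.12 and -0.42 ± 0.09 (adjusted p = 0.041 and 0.039). Of the regulators and hypoxia targets 0 of 17 passed in CD8 cells, 1 of 17 in CD4conv cells (Mlxip, lower by -0.75 ± 0.17, adjusted p = 0.038) and 0 of 16 in Treg cells (4.42%, 4.99% and 0.568% of all genes did in these gates), and 0 of 9 genes of pyruvate entry passed in any gate. The activation genes kept as context were lower in 7 of 11 in CD8 cells and 4 of 11 in CD4conv cells, with Furin at -2.07 ± 0.18 and -2.08 ± 0.16 and Cd44 at -0.89 ± 0.13 and -0.61 ± 0.10, and in Treg cells 1 of 11 passed, Nr4a1, which was higher (0.70 ± 0.15). The 3 RNA quality transcripts were lower in all gates, by -1.04 to -1.66. A fit without them and without mitochondrial genes left Hk2 called in CD8 and CD4conv cells and Slc16a3 in CD4conv cells. Slc16a3 in Treg cells no longer passed in it (1.60 ± 0.34, adjusted p = 0.0514). That fit drops only the rows of these genes and keeps every cell, so it does not adjust for RNA quality, whose part was not tested.

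Clone size went with Hk2 and Aldoa in both CD8 and CD4conv cells. A clone is a set of cells of 1 library with the same TCR clonotype, expanded where it held at least 2 kept cells and single where it held 1, and the expanded and single cells of a gate were compared within libraries. In CD8 cells Hk2, Slc2a3 and Aldoa were higher and Ldha lower in expanded clones, 4 of the 9 genes tested against 20.5% of 7299 genes. In CD4conv cells Hk2, Tpi1, Aldoa, Pgk1 and Pkm were higher, 5 of 9 against 22.5% of 7174 genes. Slc16a3 had too few molecules for the test in both gates (9 in expanded and 23 in single CD8 cells, and 37 and 134 in CD4conv cells).

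In CD8 cells Hk2 had 19.0 and 28.7 CPM in expanded clones of the combination libraries, against 7.0 and 4.6 CPM in their single cells. The expanded values rest on 5 and 13 UMIs in 47 and 95 cells. Over the 5 libraries expanded CD8 cells held 137 UMIs of Hk2 and single ones 156. With S. Chamaejasme Hk2 had 25.4 CPM in expanded and 10.6 CPM in single cells, and in the untreated libraries 93.1 and 74.4 CPM in expanded against 35.1 and 22.4 CPM in single cells. Expanded clones were higher in 5 of 5 libraries, by 1.48 ± 0.21 (2.79-fold, adjusted p = 2.38e-05), and among single cells as among expanded ones the untreated libraries had the most Hk2. In CD4conv cells Hk2 had 23.6 and 49.99 CPM in expanded clones of the combination against 6.2 and 6.8 CPM in single cells, 54.5 against 14.9 CPM with S. Chamaejasme, and 182 and 57.4 CPM against 31.6 and 24.5 CPM in untreated libraries, a change of 1.92 ± 0.21 (3.77-fold, adjusted p = 6.54e-07) with the same direction in 5 of 5. Aldoa averaged 611 ± 44.2 CPM in expanded and 390 ± 41.9 CPM in single CD8 cells (0.48 ± 0.09, adjusted p = 0.000566), and 802 ± 110 CPM in expanded and 465 ± 28.5 CPM in single CD4conv cells (0.60 ± 0.07, adjusted p = 3.37e-06; SD, n = 5 libraries), with no overlap in either gate.

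Slc2a3 was higher in expanded than in single CD8 cells, with means of 41.3 ± 11.3 and 20.3 ± 5.29 CPM (0.90 ± 0.23, adjusted p = 0.0072), in 4 of 5 libraries, and it did not pass without the S. Chamaejasme library (0.64 ± 0.26, adjusted p = 0.11). In CD4conv cells Slc2a3 did not pass (0.09 ± 0.23, adjusted p = 0.832). Tpi1 averaged 146 ± 35.3 CPM in expanded and 72.8 ± 15.9 CPM in single CD4conv cells (0.84 ± 0.14, adjusted p = 0.000127), higher in 5 of 5 libraries, and in CD8 cells it did not pass (-0.34 ± 0.17, adjusted p = 0.17). Pkm (0.33 ± 0.08, adjusted p = 0.00509) and Pgk1 (0.34 ± 0.10, adjusted p = 0.0239) were higher in expanded CD4conv cells, and neither passed without combination replicate 1 (adjusted p of 0.0506 and 0.0659), and Pgk1 also not without either untreated library (0.0869 and 0.0973). Ldha was lower in expanded CD8 cells in 5 of 5 libraries, at 352 ± 46.7 CPM against 403 ± 66.5 CPM in single cells (-0.36 ± 0.08, adjusted p = 0.00323). On library totals, where the median of all genes moved by 0.15 and 75.7% of called genes were higher against 54.2% with TMM, the change of Ldha was -0.19 ± 0.08 and did not pass (adjusted p = 0.0932). In CD4conv cells the same scaling moved the median by 0.18 and the share of higher calls from 54.7% with TMM to 80.4%, and the same 5 genes were called.

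In Treg cells 3 libraries had at least 20 expanded cells, namely both combination libraries and the S. Chamaejasme one, and 1 of 9 genes tested passed, Eno1, lower in expanded clones (-0.54 ± 0.17, adjusted p = 0.0458; 118 against 2320 UMIs), where 4.37% of 4507 genes did. It did not pass without the S. Chamaejasme library or combination replicate 1 (adjusted p of 0.214 and 0.664), nor on library totals (adjusted p = 0.147), where 56.5% of called genes were higher against 42.1% with TMM.

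Expanded clones were not spread evenly over the clusters. Cluster 8 held between 89.4% and 94.5% of expanded CD8 cells and between 15.5% and 35.3% of single ones, while expanded CD4conv cells lay mostly in clusters 1 and 4. Cluster 1 held 22.8% to 62.7% of expanded CD4conv cells and 19.4% to 21.9% of single ones, and cluster 4 held 26.9% to 72.2% of expanded and 4.7% to 17.9% of single ones, with cluster 1 the larger among expanded cells in both combination libraries and in untreated replicate 2. Within cluster 8 alone Hk2 was 0.44 ± 0.23 higher in expanded CD8 cells and did not pass (adjusted p = 0.67), nor did Slc2a3, Aldoa or Ldha. Within cluster 4 alone none of the CD4conv differences passed (Hk2 0.35 ± 0.19, adjusted p = 0.749, and Aldoa -0.044 ± 0.09), and within cluster 1 alone Aldoa did (0.38 ± 0.07, adjusted p = 0.0197). Tpi1, Pgk1 and Pkm did not pass in cluster 1, and Hk2 was not among the genes tested there.

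By size of the clone, Hk2 in CD8 cells had 15.9 ± 12.7 CPM in single cells, 44.3 ± 31.4 CPM in clones of 2 to 4 cells and 58.0 ± 38.8 CPM in clones of 5 or more (SD, over 5, 5 and 4 libraries). Aldoa in CD8 cells had 390 ± 41.9, 603 ± 69.4 and 617 ± 49.2 CPM in the same order. The step lay between single cells and clones of 2 to 4, and the larger clones overlapped those of 2 to 4. In CD4conv cells only 2 libraries had enough cells in clones of 5 or more, at 59.8 and 73.5 CPM of Hk2.

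**Figure D4:**
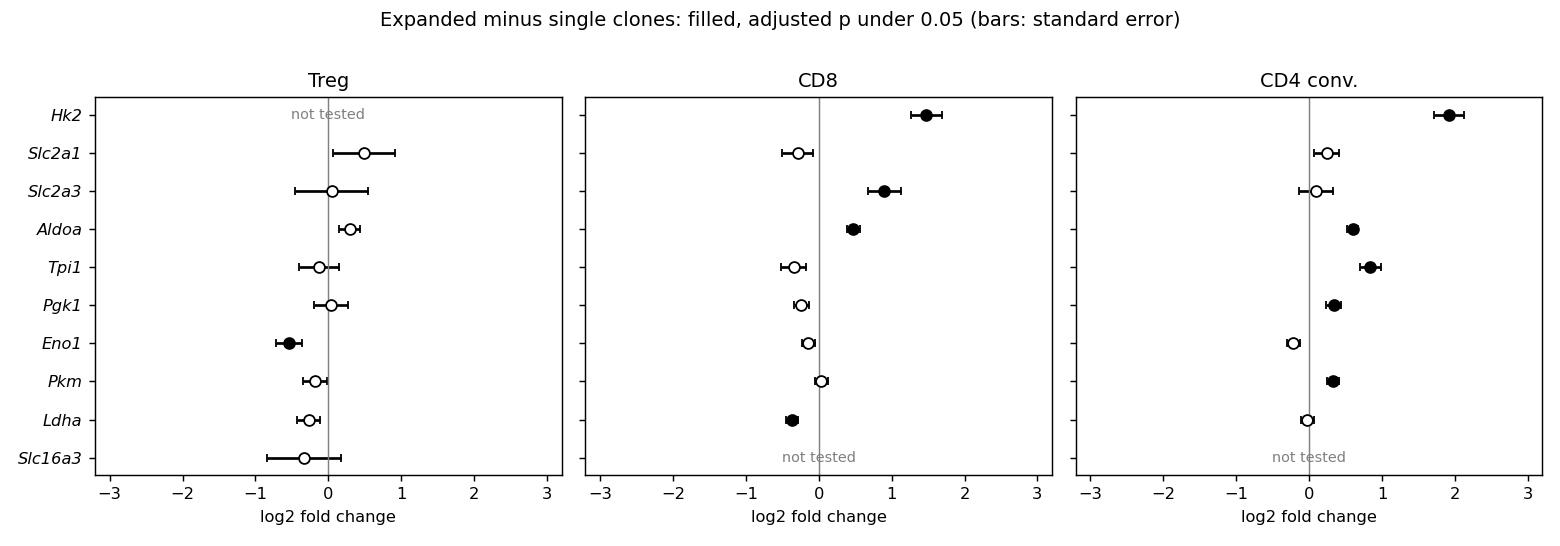
Log2 fold change of each gene in expanded relative to single clones, in Treg, CD8 and CD4conv cells, with its standard error; filled points have an adjusted p under 0.05. Hk2 is at 1.48 in CD8 and 1.92 in CD4conv cells, Ldha at -0.36 in CD8 cells, and genes with too few molecules are marked as not tested.

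**Figure D5:**
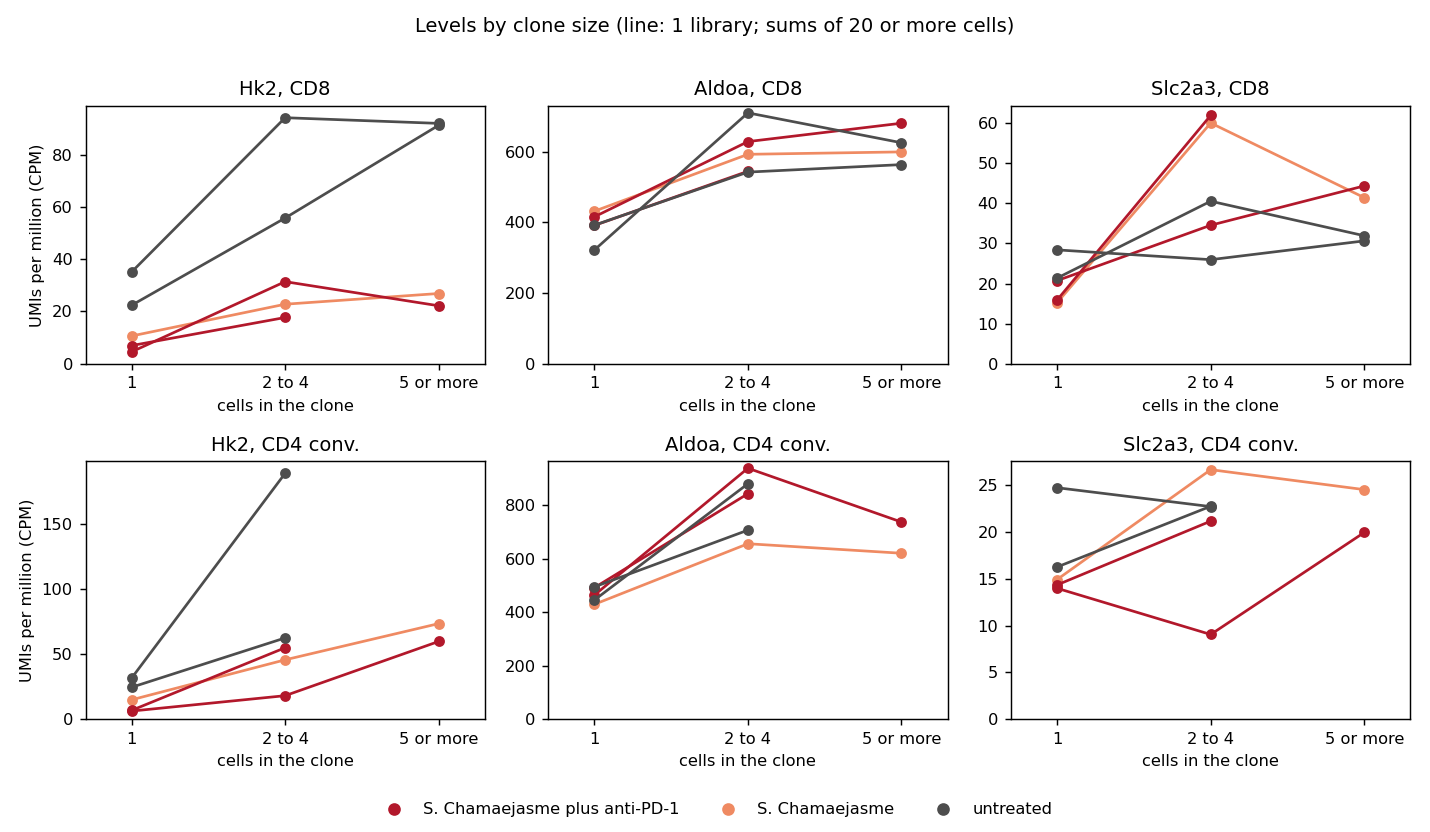
Hk2, Aldoa and Slc2a3 in CPM (linear axes from 0) by the number of cells in the clone, in CD8 cells (upper row) and CD4conv cells (lower row); a line joins sums of at least 20 cells of 1 library, coloured by group. Hk2 and Aldoa are higher in clones of 2 to 4 cells than in single cells in every library, and the untreated libraries hold the most Hk2 among CD8 cells at each size.

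Genes of the same pathway gave mixed counts in expanded clones, where 20.5% of all genes passed in CD8 and 22.5% in CD4conv cells. Counts were near or below that share for other glycolysis in CD8 cells and for pyruvate entry in both gates. They were above it for other glycolysis in CD4conv cells, and for regulators and other transporters in both gates, on few genes. Of the other transporters, 1 was higher (Emb) and 1 lower (Slc16a1) of 4 in CD8 cells. In CD4conv cells 2 of 3 were higher (Slc16a1 and Emb). Of 13 other glycolysis genes 2 were higher in CD8 cells (Gapdh and Pfkp) and 1 lower (Adpgk), and 3 higher (with Pgam1) and 2 lower (Ldhb and Adpgk) in CD4conv cells. Gapdh was higher by 0.43 ± 0.08 (adjusted p = 0.00077) and 0.59 ± 0.07 (adjusted p = 4.2e-06). Hif1a was higher by 0.89 ± 0.09 in CD8 cells (adjusted p = 6.6e-07) and by 0.89 ± 0.10 in CD4conv cells (adjusted p = 7.3e-07), with 1 higher and 3 lower of 13 regulators and hypoxia targets in CD8 cells, and 4 higher and 3 lower of 14 in CD4conv cells. Myc, which drives glycolytic genes early in activation, was lower by -1.04 ± 0.16 (adjusted p = 4.5e-05) and -1.33 ± 0.16 (adjusted p = 1.6e-06). Pdk1, the kinase that holds pyruvate back from the mitochondrion, was the 1 lower gene of 7 of pyruvate entry in each gate. The 3 RNA quality transcripts were lower in expanded clones of both gates, by -0.31 to -0.54. The activation genes kept as context were higher in 7 of 11 in CD8 cells and 10 of 11 in CD4conv cells, and 0 were lower.

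Over the 15 sums, the mean of the 10 standardised log2 levels went most with Tpi1 (Pearson r = 0.97), Slc16a3 (0.95) and Aldoa (0.93), each of which is part of that mean, and least with Hk2 (-0.30). The highest correlation between 2 of the genes was that of Tpi1 and Aldoa (0.93) and the lowest that of Eno1 and Hk2 (-0.61). Of 6831 other genes with at least 10 CPM on average, those most alike in pattern to the mean included Zfand6, Ptms, Tcf25 and Ctsb, with r of 0.95 to 0.96. These are descriptions over sums that share 5 libraries, and most of the spread lies between the lineages.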

How the data were processed

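Five-prime single-cell RNA and T cell receptor libraries were made from tumour-infiltrating T cells. The values deposited by the authors are unnormalised counts of UMIs, with a clonotype table for each library. The authors used Cell Ranger 3.1.0 and STAR (version not given in the sources used here) with mm10, per the submitters' processing notes. Cells with fewer than 300.0 genes or over 10.0% mitochondrial UMIs were left out. The 1310 cells with a high doublet score or at least 2 TRB chains were then removed, because the automatic doublet threshold marked 17. Counts were summed per lineage gate and library (at least 20 cells) and tested with edgeR 4.0.16 (quasi-likelihood, TMM, filterByExpr, Benjamini-Hochberg over all genes tested, threshold 0.05), in R 4.3.3. DESeq2 1.42.0 was an alternative. CPM values were computed here from the deposited counts, unscaled, while fold changes include TMM scaling. Group fits used all 3 groups, and lineage and clone fits had the library as a block. Expanded clones held at least 2 kept cells with 1 Cell Ranger clonotype. Clusters were made with scanpy 1.11.5 from 2000 variable genes without the 10 genes or the pathway lists. The 10 genes, the lists and the tests were chosen with earlier results of these data known. The text names those of the 10 genes that passed in a comparison, and only some of those that did not. Genes of the other lists are named mainly where they passed, and the most alike genes were taken by Pearson r. Counting error grows at low totals.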

Additional observations from a re-analysis of the deposited data

Results flagged for a closer look

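The change in the combination relative to untreated tumours differed between lineages, by the interaction test of edgeR with adjustment over all genes, for 6 pairs of an activation gene and a lineage contrast, none of them among the 10 genes. For CD8 minus CD4conv cells, Il2ra, the high-affinity interleukin 2 receptor chain, differed by -1.67 ± 0.28 (adjusted p = 0.0197) and Tnfrsf9, a costimulatory receptor, by -1.40 ± 0.20 (adjusted p = 0.0102). For Treg minus CD4conv cells, Il2ra differed by 1.28 ± 0.24 (adjusted p = 0.0142), the activation-induced nuclear receptors Nr4a3 by 0.97 ± 0.20 (adjusted p = 0.0245) and Nr4a1 by 0.79 ± 0.11 (adjusted p = 0.000572), and the costimulatory receptor Tnfrsf4 by 0.66 ± 0.12 (adjusted p = 0.0119).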

How the results depend on the processing

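Hk2 in CD8 cells, combination against untreated, passed in all 15 alternatives (-2.61 to -1.70). No paired analysis was possible because the groups share no replicate pairing and S. Chamaejasme has 1 library. Without the library as a replicate block, lineage calls numbered 2 in CD8 against CD4conv cells (6 with it) and 4 in Treg against CD4conv cells (7), and 0 in expanded Treg clones (1). The number of the 10 genes called in the combination against untreated tumours, leaving out 1 library, was 1 to 3 in CD8 cells (1 with all), 1 to 4 in CD4conv cells (2) and 0 to 2 in Treg cells (1). In CD4conv cells it was 1 with DESeq2, which gave Slc16a3 no adjusted p, 1 with classes of clusters or without cluster 7, and 0 in cluster 1 or cluster 4 alone. In Treg cells it was 0 with no filter, without RNA quality genes or without cycling cells, and 2 with classes of clusters. With DESeq2 it was also 0 there, where Slc16a3 again had no adjusted p. DESeq2 likewise gave no adjusted p to Hk2 in CD8 cells for S. Chamaejasme against untreated. For S. Chamaejasme against untreated it was 0 in CD8 cells with DESeq2, on library totals and in cluster 5 alone (1 in the main test), 0 to 2 without a library, and in CD4conv cells 2 with no filter and 0 to 2 without a library (0). For the combination against S. Chamaejasme it was 0 to 1 in CD8 cells without a library, and in CD4conv cells 1 with no filter and 1 without either combination or either untreated library (0). Expanded CD8 clones gave 0 in cluster 8 alone (4). Expanded CD4conv clones gave 3 from 3 cells up, 1 in cluster 1 and 0 in cluster 4 alone, where Aldoa (-0.044) and Tpi1 (-0.065) reversed, and 3 to 6 without a library (5). Expanded Treg clones gave 0 with DESeq2, RLE, library totals, classes of clusters, without RNA quality genes and without cycling cells, and 0 to 1 without a library (1). The cause of these changes was not tested. Cluster fits, library totals and the removal of cluster 7 were chosen after seeing the data.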
